A study of Mus musculus with 12 samples.

Results

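The apolipoprotein L family was followed in RNA from NK cells and type 1 innate lymphoid cells (ILC1) of lean and obese mouse livers. Its members were the 10 genes Apol6, Apol7a, Apol7b, Apol7c, Apol7e, Apol8, Apol9a, Apol9b, Apol10b and Apol11b, taken by symbol from the 5545 genes analysed here. The table held 14 symbols beginning with Apol, and the other 4 are Apol7d, Apol10a, Apol11a and Apold1. Intrahepatic leukocytes of 6 C57BL/6 mice, given in the methods as C57BL/6J females, were gated as Lin- NK1.1+ and sorted into NK cells, which were CD49a- CD49b+, and ILC1, which had the reverse phenotype CD49a+ CD49b-, and 2 ng of RNA from each sort were made into 12 libraries. The lean mice, 3 in number, had the RM1 diet from weaning for 12 weeks. The 3 obese mice had diet 824018 (45% AFE fat) with condensed milk for the same 12 weeks, so fat, sugar and weight gain come together in that group. Each mouse, numbered 25, 26 or 27 within its diet, gave 1 NK and 1 ILC1 library, and the numbers mark different animals in lean and obese mice.

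Apolipoproteins L form a vertebrate family of lipid-binding proteins with amphipathic helices. The best known member, human APOL1, is secreted, circulates with high-density lipoprotein and kills trypanosomes by forming channels in their membranes. Most other members have no signal peptide and stay within the cell, at membranes of organelles, and many are induced by interferons. Mice have no direct counterpart of APOL1 but a large group of tandem copies of other members. NK cells are circulating cytotoxic lymphocytes, and ILC1 are their tissue-resident relatives, which in the liver are marked by receptors such as CXCR6 and CD200R1.

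In the GENCODE annotation of GRCm38, 9 of the 10 members lay with 3 further Apol genes within 368.8 kb of chromosome 15, at chr15:77388219-77757003, and Apol6 lay 331.1 kb away. Apol7b (chr15:77422209-77447492, minus strand) and Apol7e (chr15:77698857-77719285, plus strand) were 251.4 kb apart and faced opposite directions. Their coding sequences had 1107 bases each, over a gene of 5 exons, and were 98.9% identical. The next most similar coding sequences were those of Apol9a and Apol9b (98.5%), Apol7a and Apol7c (90.8% of the aligned bases) and Apol7a and Apol7b (89.3%). The identity decides how far a short read can be assigned to 1 gene. Apol7b and Apol7e differed at 12 coding positions, counted from 1 at the first base of the start codon, with the base of Apol7b first: T9C, G280A, A346C, T420C, T635C, C658T, G663A, T816A, T856A, C979T, T1058C and G1062A. The longest coding run without a difference was 270 bases.

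The stretch of 120 coding bases shown here, positions 544 to 663, was chosen because it held the most differences between Apol7b and Apol7e, 3 of the 12. In Apol7b the capitals mark the bases that differ from Apol7e, and in Apol7e and Apol7c they mark those that differ from Apol7b.
Apol7b: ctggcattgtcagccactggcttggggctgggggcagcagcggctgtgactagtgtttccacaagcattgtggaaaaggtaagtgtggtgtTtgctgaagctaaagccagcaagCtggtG
Apol7e: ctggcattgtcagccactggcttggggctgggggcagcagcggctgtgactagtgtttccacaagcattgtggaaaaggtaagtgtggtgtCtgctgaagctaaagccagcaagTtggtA
Apol7c: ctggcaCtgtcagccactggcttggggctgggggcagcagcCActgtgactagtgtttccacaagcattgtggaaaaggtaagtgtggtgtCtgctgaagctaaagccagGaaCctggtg
Apol7c differed from Apol7b at 6 of these positions. A read from this stretch can be told apart only where it covers such a position.

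Of the 2153 windows of 75 bases along the Apol7b transcript, 1374 (63.8%) were also found in a transcript of another gene, 1364 of them in Apol7e. For Apol7e it was 1486 of 2134 (69.6%). The shared windows lay mostly behind the coding sequence, where 94.7% of the windows of Apol7b and 95% of those of Apol7e were shared, against 41.0% and 50.5% of the windows that touched the coding sequence. The share was 47.9% for Apol9a, 41.6% for Apol9b, 14.8% for Apol7c, 8.28% for Apol11b, 8.03% for Apol7a and 1.51% for Apol10b. It was 0 for Apol6 and Apol8. How reads that match several genes were counted, the strand setting and the annotation used for counting are not given in the sources used here, so the values of Apol7b and Apol7e, and of Apol9a and Apol9b, are uncertain as far as such reads were split between them.

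The 250 bases before the start of transcription were read from the RefSeq promoter table of GRCm38.p6, which held 9 of the 10 members, and searched on both strands. The promoters of Apol7b and Apol7e had 1 substitution over 245 aligned bases, and 5 bases of Apol7e were missing from Apol7b. The capitals in the stretches shown here mark matches to GAAA followed, after 2 bases of any kind, by a second GAAA, or to the reverse complement, the core of the interferon-stimulated response element, to which the signalling complexes of interferons bind. The first pair shows 100 bases before the starts of Apol7b (chr15:77447463-77447562, minus strand) and Apol7e (chr15:77698787-77698886, plus strand), of which the last 30 lie inside the longer GENCODE transcripts.
Apol7b: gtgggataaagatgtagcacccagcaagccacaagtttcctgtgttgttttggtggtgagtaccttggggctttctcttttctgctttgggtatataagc
Apol7e: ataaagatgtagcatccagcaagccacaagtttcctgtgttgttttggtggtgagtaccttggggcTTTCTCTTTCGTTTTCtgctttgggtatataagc
The capitals in Apol7e cover a pair of overlapping matches, and the 5 bases missing from Apol7b fall within them, so that Apol7b had no match. Stretches of 30 bases with a match were also found in Apol7c (chr15:77533348-77533377, minus strand), Apol9a (chr15:77411117-77411146, minus strand), Apol9b (chr15:77729028-77729057, plus strand) and Apol11b (chr15:77643314-77643343, minus strand).
Apol7c: atggggcTTTCTCTTTCCTTTTCtgctttg
Apol9a: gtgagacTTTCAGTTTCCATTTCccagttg
Apol9b: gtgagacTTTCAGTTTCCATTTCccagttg
Apol11b: tttttacTTTCACTTTCatgcactgggtat
The matches shown for Apol9a and Apol9b reach into their GENCODE genes, which begin at chr15:77411135 (minus strand) and chr15:77729039 (plus strand). In all, 5 of the 9 members held the motif, against 974 of 32817 promoters (2.97%), and these members are similar copies rather than independent promoters. The members were counted by gene, though Apol9a and Apol9b have more than a single start in the promoter table. TTCNNNGAA, the interferon-gamma activated site, was found in Apol11b alone among the members and in 7.01% of all promoters. The letters TCACACCT, a half-site of T-box factors, were in none of the 9 members and in 1.12% of all promoters, and GTCTAGAC, a SMAD-binding element, in none and in 0.168%. The exact letters TATAAA, a form of the TATA box, were in none and in 12.4%. Other forms were not searched, so tatataagc at the end of the stretches of Apol7b and Apol7e did not count as a match. A match describes letters and was not set against binding data.

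Depth and the make-up of some libraries bear on every value of the family. Over the genes analysed here, whose symbols run in the alphabet up to Cyp26b1, the libraries held between 1666637 and 2826766 counts, which is less than their full depth. The ILC1 library of obese mouse 26 stood apart. Its summed level of hepatocyte markers was 157785 CPM (counts per 1000000 counts of the library), with 14 of 14 markers detected, against at most 683 CPM in the other 11 libraries. Likewise the 10 Kupffer cell and macrophage markers summed to 24812 CPM against at most 1107, the 10 dendritic cell markers to 90386 against at most 5012, and the 7 B cell markers to 9549 against at most 229. The ILC1 markers Cxcr6 and Cd200r1 summed to 3396 CPM in this library, below the 8131 to 13826 CPM of the other ILC1 libraries and above the 34.2 to 378 CPM of the NK libraries. The NK library of lean mouse 27 held the fewest genes with a count, 1948 against 2014 to 3292. Where leaving out a library changed a call, a direction or a called value of a tested member by over 1.5-fold, that value is given beside the result.

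Of the 13876 counts of the family, 94.1% were of Apol7b and Apol7e, a share of counts that is not corrected for gene length. Apol11b had 536 counts over the 12 libraries, and the 7 remaining members had under 100 each. Apol6, whose human counterpart promotes apoptosis when overexpressed, had a single count, in the ILC1 library of lean mouse 27. The filter on low counts left only Apol7b and Apol7e to be tested, 2 of the 10 members, so the other 8 are described by their counts. Apol7d, Apol10a and Apol11a had no count in any library, and Apold1 had 108 counts in 7 libraries and was tested but not called in any comparison. The level was also taken per kilobase of exon, which corrects for gene length but not for reads shared between similar genes. On this scale Apol7e had 77.0 ± 32.4 CPM per kb (SD, n = 3) in lean NK cells, where Apol7b had 0.201 ± 0.195. In lean ILC1 the level was 325 ± 46.9 CPM per kb for Apol7e and 73.6 ± 19.5 for Apol7b.

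**Figure D1:**
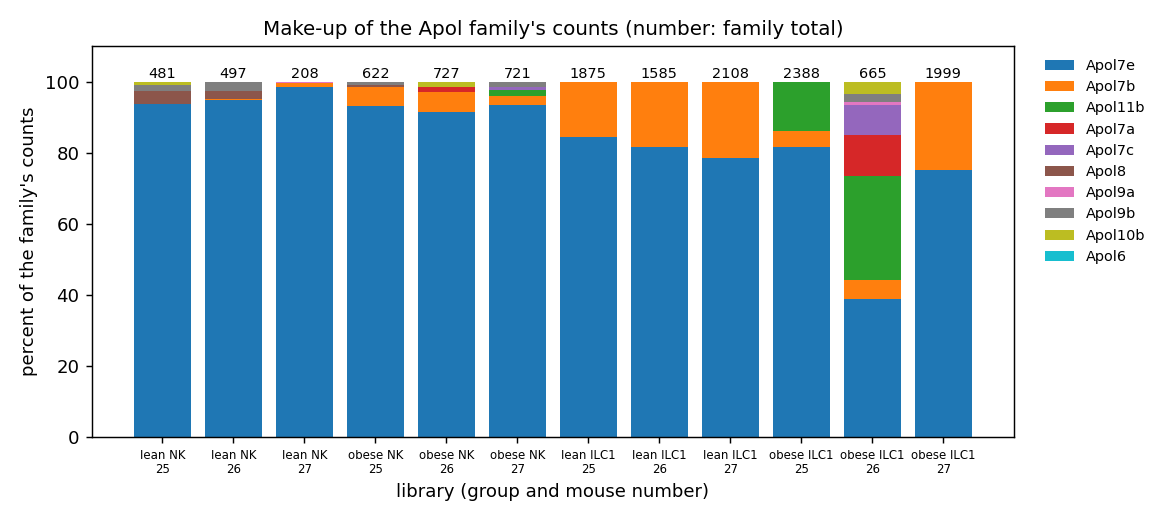
Share of the family's raw counts (percent, vertical axis) taken by each member in each of the 12 libraries, with the family's total count above each bar. Apol7e takes 91.5 to 98.6% of the counts in NK libraries and 75 to 84.3% in 5 of the 6 ILC1 libraries, but 38.8% in the ILC1 library of obese mouse 26, where members other than Apol7b and Apol7e take 55.9%.

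Apol7e had the most counts of the members in every library. It had 451, 471 and 205 counts in the NK libraries of lean mice 25, 26 and 27 (215, 245 and 97.2 CPM) and 580, 665 and 673 in those of obese mice (235, 228 and 260 CPM). In ILC1 it had 1580, 1294 and 1655 counts in lean mice (841, 653 and 856 CPM) and 1947, 258 and 1499 in obese mice (1207, 216 and 545 CPM). All 3 lean ILC1 libraries lay above all NK libraries, whereas the obese ILC1 libraries overlapped with the NK libraries through that of mouse 26.

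Apol7b was nearly absent from lean NK cells and present in every ILC1 library. Lean NK libraries had 0, 1 and 2 counts (0, 0.521 and 0.949 CPM), and obese NK libraries had 32, 40 and 19 (13, 13.7 and 7.34 CPM). In ILC1 it had 295, 291 and 452 counts in lean mice (157, 147 and 234 CPM) and 111, 35 and 500 in obese mice (68.8, 29.2 and 182 CPM). From lowest to highest, the group means were 0.490 ± 0.475 CPM in lean NK cells, 11.3 ± 3.48 in obese NK cells, 93.2 ± 79.1 in obese ILC1 and 179 ± 47.5 in lean ILC1 (SD, n = 3 each). Without the library of mouse 26 the mean of obese ILC1 was 125 ± 79.8 CPM (SD, n = 2). No library of either NK group overlapped with the next group, while the ranges of obese and lean ILC1 overlapped.

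**Figure D2:**
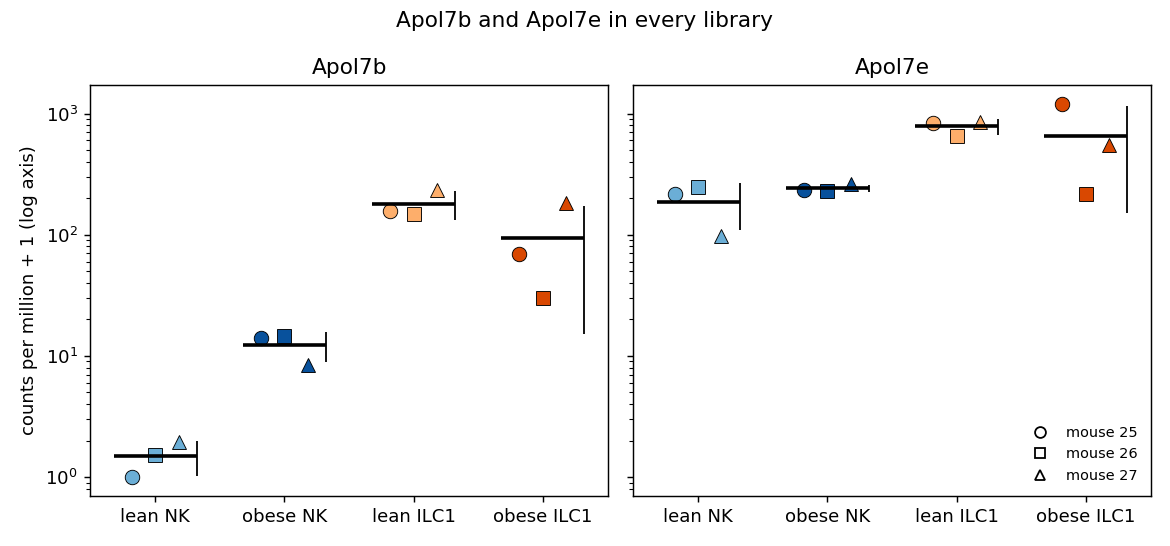
Level of Apol7b and Apol7e (CPM + 1, log axis) in the 4 groups. Points are libraries with the mouse given by the symbol, horizontal lines are group means, and vertical lines the SD (n = 3). Apol7b runs from 0 to 0.949 CPM in lean NK cells, from 7.34 to 13.7 in obese NK cells and from 29.2 to 234 in ILC1. Apol7e stays between 97.2 and 260 CPM in all 6 NK libraries.

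The ratio of the near-identical pair was not the same in every group. Per 100 counts of Apol7e, lean NK libraries had 0, 0.212 and 0.976 counts of Apol7b, and obese NK libraries had 5.52, 6.02 and 2.82. The ratio was 18.7, 22.5 and 27.3 in lean ILC1 and 5.70, 13.6 and 33.4 in obese ILC1. It was thus lowest in the 3 lean NK libraries, in which 205 to 471 counts of Apol7e came with at most 2 of Apol7b. Summed, the pair had 186 ± 77.9 CPM in lean NK cells, 252 ± 13.4 in obese NK cells, 963 ± 148 in lean ILC1 and 749 ± 516 in obese ILC1 (SD, n = 3 each). This sum does not depend on how reads were divided between these 2 genes. It does depend on whether reads that match both, or a further gene, were counted. Without the library of mouse 26 the sum in obese ILC1 was 1001 ± 389 CPM (SD, n = 2).

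ILC1 were compared with NK cells to ask which members mark the resident cells. The test was edgeR's quasi-likelihood test over 2606 genes, and a call needed both an adjusted p (Benjamini-Hochberg) under 0.05 and more than a 2-fold change. Over both diets, both tested members were called, with the higher level in ILC1, and 3.15% of the 2606 genes were called in that direction. The log2 fold change was 5.69 (standard error 0.717, adjusted p = 0.000817 by edgeR) for Apol7b and 1.76 (standard error 0.376, adjusted p = 0.0200 by edgeR) for Apol7e. NK cells and ILC1 came from the same mice. With the mouse as a block, Apol7b was still called (log2 fold change 5.61, adjusted p = 0.0315 by edgeR), and Apol7e was not (1.64, adjusted p = 0.113). With the block and without both libraries of obese mouse 26, both were called (adjusted p = 0.0304 for Apol7b and 0.0346 for Apol7e by edgeR).

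Within each mouse, Apol7b was higher in ILC1 in 6 of 6 mice, by 1.04 to 7.39 in log2 CPM (exact sign-flip permutation test, two-sided p = 0.0312, the smallest that 6 pairs allow). Apol7e was higher in 5 of 6, with differences from -0.08 to 3.13 (p = 0.0625 in the same exact permutation test). The CPM of Apol7e in ILC1 divided by that in NK cells of the same mouse was 3.91, 2.66 and 8.81 in lean mice and 5.14, 0.946 and 2.09 in obese mice 25, 26 and 27. The ratio under 1 was thus that of the mouse whose ILC1 library stood apart. Leaving out each library in turn, the call of Apol7b over both diets held in all 12 cases (log2 fold change 5.23 to 6.10), and that of Apol7e was lost in 6 (adjusted p up to 0.0704 by edgeR). Those 6 were the lean NK library of mouse 25 (adjusted p = 0.0522), the obese NK libraries of mice 25, 26 and 27 (0.0683, 0.0704 and 0.0665) and the lean ILC1 libraries of mice 25 and 27 (0.0584 and 0.0523), each by edgeR.

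In lean mice alone, Apol7b was called as higher in ILC1 (log2 fold change 8.35, standard error 1.15, adjusted p = 0.00291 by edgeR), as were 1.50% of the genes tested. The fold rests on 3 counts in lean NK cells: 1038 against 3 counts gave a ratio of 366 with a counting interval of 125 to 1777 (95%, exact). Without the NK library of lean mouse 27, which held 2 of these 3 counts, the log2 fold change was 9.17 (adjusted p = 0.00885 by edgeR). With the mouse as a block it was 8.55 and the call was lost (adjusted p = 0.0600 by edgeR). Apol7e missed the threshold in lean mice (2.08, standard error 0.537, adjusted p = 0.0794 by edgeR), and it was called without the ILC1 library of obese mouse 26 (2.05, adjusted p = 0.00922 by edgeR), which enters only through the shared estimate of the spread. It was also called without that of obese mouse 25 (2.08, adjusted p = 0.0196 by edgeR). Both members were above every lean NK library in every lean ILC1 library, as were 13.6% of all tested genes.

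In obese mice alone, neither member was called, against 0.537% of tested genes called higher. The log2 fold change was 3.04 for Apol7b (standard error 0.872, adjusted p = 0.137 by edgeR) and 1.44 for Apol7e (standard error 0.526, adjusted p = 0.228 by edgeR). Without the ILC1 library of mouse 26, Apol7e was called (1.85, adjusted p = 0.0378 by edgeR) and Apol7b was not (3.44, adjusted p = 0.0670). Without that of mouse 25, the value of Apol7e was 0.65 (adjusted p = 0.558 by edgeR), and without that of mouse 27, the value of Apol7b was 2.10 (adjusted p = 0.249 by edgeR). Over all libraries left out in turn, the adjusted p by edgeR ran from 0.0670 to 0.531 for Apol7b and from 0.0378 to 0.617 for Apol7e. DESeq2 called Apol7b with all libraries (3.06, adjusted p = 0.000622). All obese ILC1 libraries lay above all obese NK libraries for Apol7b, as for 8.60% of tested genes, but not for Apol7e. The ratio of CPM between the ILC1 and NK libraries of 1 mouse was 5.31, 2.13 and 24.7 for Apol7b.

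Markers of T cells and of other cell types differed in the same comparison. The 9 T cell markers analysed summed to 7667 to 9126 CPM in lean ILC1 against 492 to 989 in lean NK cells, and to 2472 to 7969 CPM in obese ILC1 against 786 to 1122 in obese NK cells. Of the 7 tested, Cd3d, Cd3e and Cd3g, subunits of the T cell receptor complex, were called higher in ILC1 over both diets, while Cd8a and Cd8b1 were at 0 in both lean groups. By edgeR, the median log2 fold changes over both diets were 5.38 for Kupffer cell, 4.18 for T cell and 2.75 for dendritic cell markers. Without the ILC1 library of obese mouse 26 they were 3.75, 3.09 and 2.18. Hepatocyte, endothelial and B cell markers had medians of 4.80, 3.91 and 2.34, and without that library 1.84, 1.09 and -0.88. Adgre1, C1qa, C1qc, Cd74 and Ciita of the Kupffer and dendritic cell lists were called higher with all libraries. The part of these cells in the results for Apol7b and Apol7e was not tested. In bulk RNA, a change in the share of cells that express a gene and a change in RNA per cell cannot be told apart.

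**Figure D3:**
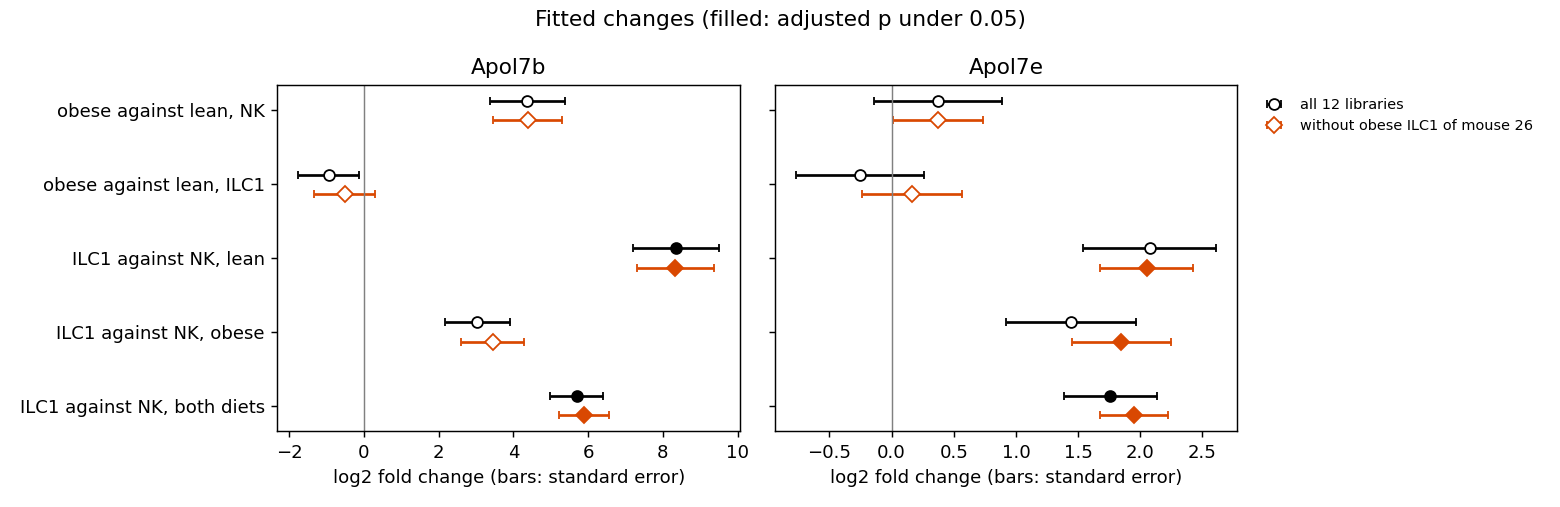
Log2 fold changes of Apol7b and Apol7e (horizontal axis, with standard errors) from edgeR in 5 comparisons, with all 12 libraries (circles) and without the ILC1 library of obese mouse 26 (diamonds). Filled symbols have an adjusted p under 0.05. Without that library, Apol7e is called in lean mice, in obese mice and over both diets, and its difference between obese and lean ILC1 goes from -0.26 to 0.17.

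The comparison of obese with lean NK cells asked which members moved with the diet. By edgeR's quasi-likelihood test no gene of 2606 was called in either direction (0%), 31 had an unadjusted p under 0.05, and DESeq2 called 8. At the same thresholds with SARTools, the paper reports a set of genes overexpressed in obese NK cells and only Malat1 underexpressed. Its test also covered genes beyond those analysed here. For Apol7b, 91 counts in obese against 3 in lean NK cells gave a ratio of 23.3, with a counting interval of 7.72 to 115 (95%, exact, which covers counting error only, as no molecular identifiers are named in the sources used here). The fitted log2 fold change was 4.38 (standard error 1.0), with an unadjusted p of 0.00113 and an adjusted p of 0.983 by edgeR. DESeq2 called the gene (log2 fold change 4.52, adjusted p = 0.0143). The libraries did not overlap, as for 11.6% of tested genes in that direction. With each library left out in turn, edgeR's log2 fold change lay between 3.83 and 5.20, and without the NK library of lean mouse 27 it was 5.20 (adjusted p = 1). Apol7b and Apol11b are among the genes that the study itself chose on these samples, so their direction here is no independent evidence.

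Apol7e did not share that difference. In NK cells it differed between the diets by 0.37 on the log2 scale (standard error 0.517, adjusted p = 1 by edgeR), and 0.07 without the NK library of lean mouse 27, which had the fewest counts. Expressed as a percentage of the mean of lean ILC1, the level of Apol7b was 0.273% in lean and 6.32% in obese NK cells, and that of Apol7e 23.7% and 30.8%. On the same scale Cxcr6, the chemokine receptor that retains cells in liver sinusoids, stood at 0.371% and 1.45%, and Cd200r1, an inhibitory receptor of ILC1, at 0.595% and 3.58%.

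The sums of ILC1, hepatocyte and dendritic cell markers were higher in obese than in lean NK libraries, without overlap. A sum can rest on a single gene or library, and no marker was called by edgeR. The median log2 fold changes were 3.48 for hepatocyte, 2.27 for ILC1, 2.26 for Kupffer cell and 1.25 for B cell markers. They were 1.23 for T cell, 1.13 for dendritic cell, 0.85 for endothelial and -0.44 for NK cell markers, against 0.09 over all tested genes. The ILC1 markers Cxcr6 and Cd200r1, 2 of the 6 listed, summed to 34.2 to 69.6 CPM in lean and 125 to 378 CPM in obese NK cells. The hepatocyte markers summed to 36.7 to 110 and 122 to 458 CPM, and the dendritic cell markers to 42.7 to 224 and 399 to 914 CPM. The paper names Cd200r1 among the genes raised in obese NK cells on these samples, so its direction is no independent evidence. It also reports more CD200R1 protein on NK cells of obese mice. Kupffer cell markers (89.1 to 574 and 129 to 180 CPM), T cell markers (492 to 989 and 786 to 1122 CPM), B cell markers (55.8 to 217 and 56.2 to 93.6 CPM) and endothelial markers (0 to 113 and 106 to 131 CPM) overlapped between the diets. The NK cell markers Cx3cr1 and Cma1, 2 of the 10 listed that are among the genes analysed here, summed to 4093 to 5870 CPM in lean and 3108 to 3779 CPM in obese NK cells, with no overlap. In lean NK cells Apob, Apoc3, Ass1 and Cps1 of the hepatocyte list and Clec9a and Clec10a of the dendritic cell list were at 0, and no listed marker was at 0 in obese NK cells. Per 100 counts of Cxcr6, Apol7b had 12.5, 4.68 and 10.6 counts in obese NK libraries and 0, 1.35 and 3.28 in lean NK libraries. In ILC1 it had 1.45, 1.59 and 1.95 counts per 100 of Cxcr6 in lean mice and 0.778, 0.979 and 3.09 in obese mice. Per 100 counts of Cd200r1, it had 29.9, 16.1 and 13.2 counts in obese NK libraries, 0, 7.14 and 18.2 in lean NK libraries, 8.34, 10.4 and 12.7 in lean ILC1 and 2.21, 7.14 and 8.08 in obese ILC1. Relative to either receptor, each obese NK library lay above every ILC1 library. The NK library of lean mouse 27 did so too for both receptors, with 2 counts of Apol7b, 61 of Cxcr6 and 11 of Cd200r1. The part of other cells in the values of Apol7b was not tested further.

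**Figure D4:**
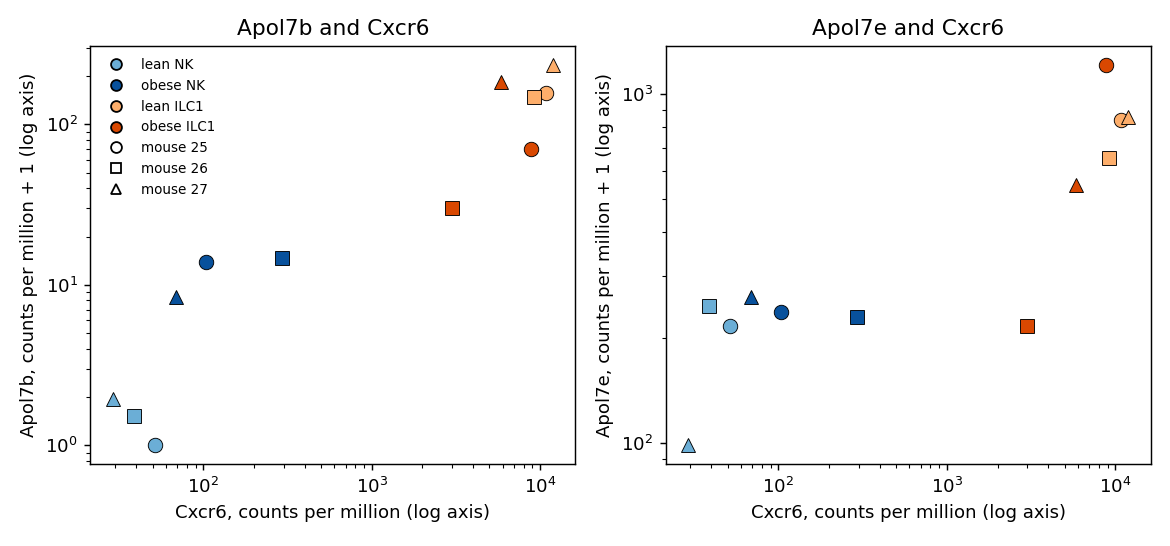
Level of Apol7b and of Apol7e (CPM + 1, log axes) against that of Cxcr6 (CPM) in the 12 libraries, coloured by group with the mouse given by the symbol. Apol7b is lowest in lean NK cells, intermediate in obese NK cells and highest in ILC1, while Apol7e is similar in all NK libraries and in the ILC1 library of obese mouse 26.

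Between obese and lean ILC1 no gene was called in either direction by edgeR's quasi-likelihood test (0%), 277 of 2606 had an unadjusted p under 0.05, and DESeq2 called 57 higher and 20 lower, neither tested member among them. The log2 fold change of Apol7b was -0.94 (standard error 0.811, adjusted p = 0.771 by edgeR), and the obese libraries, at 29.2 to 182 CPM, overlapped with the lean ones. The value was -0.51 without the ILC1 library of mouse 26 and -1.88 without that of mouse 27, which had the most counts. For Apol7e it was -0.26 (standard error 0.516, adjusted p = 0.929 by edgeR) and turned to 0.17 (adjusted p = 0.918) without the library of mouse 26.

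The diet effect was also compared between the cell types, with the difference of obese minus lean in ILC1 from that in NK cells as an interaction term. No gene was called (0%), 155 of 2606 had an unadjusted p under 0.05, and DESeq2 called 6 higher and 15 lower. For Apol7b the term was -5.32 on the log2 scale (standard error 1.28), with an unadjusted p of 0.00161 and an adjusted p of 0.647 by edgeR, and DESeq2 called it (-5.44, adjusted p = 0.00771). With each library left out in turn the term lay between -6.25 and -4.79, with an adjusted p of at least 0.304 by edgeR. It was -6.14 without the NK library of lean mouse 27 and -4.89 without the ILC1 library of obese mouse 26. For Apol7e the term was -0.63 (standard error 0.731, adjusted p = 0.996 by edgeR). The comparisons share libraries, so their values are given side by side only.

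Apol11b, whose coding sequence was 82.5% identical to that of Apol10b over the aligned bases, had no count in any lean library of either cell type. In obese mice it had 1, 0 and 12 counts in the NK libraries of mice 25, 26 and 27 and 328, 195 and 0 in the ILC1 libraries (203, 163 and 0 CPM). The obese ILC1 libraries thus split, with 2 at high counts and that of mouse 27 at 0. Against the floor of 3 counts over the lean ILC1 group, the pooled level in obese ILC1 was at least 182-fold higher, at least 145-fold higher without the library of mouse 26 and at least 95.3-fold higher without that of mouse 25. The gene did not pass the filter. Without the filter edgeR gave an unadjusted p of 0.0101 and an adjusted p of 0.361, and DESeq2 an adjusted p of 0.0545, for obese against lean ILC1. A high count in one library beside 0 in another was frequent in this group: of 2110 genes with at least 100 counts in an obese ILC1 library, 411 (19.5%) had no count in another, and 193 of 1857 (10.4%) without the library of mouse 26. The share was 6.89% in lean NK cells, 0.97% in lean ILC1 and 0% in obese NK cells.

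Apol7a and Apol7c, the closest relatives of Apol7b and Apol7e, were detected almost only in the ILC1 library of obese mouse 26. Apol7a had 77 counts there, 10 in the NK library of the same mouse and none elsewhere. Apol7c had 57 counts there, 1 in the ILC1 library of obese mouse 25 and 5 in the NK library of obese mouse 27. Apol10b had 23 counts in that ILC1 library, 11 in the NK library of the same mouse, 5 in the NK library of lean mouse 25 and none elsewhere. Of the 250 counts of Apol7a, Apol7c, Apol9a, Apol9b and Apol10b over all libraries, this single ILC1 library held 177 (70.8%). These genes leave out the other untested members, of which Apol11b had 195 of 536 counts there, Apol8 0 of 33 and Apol6 0 of 1. Over all genes analysed, the library held 1832842 counts, within the 1666637 to 2826766 counts of the 12 libraries. It is the library with the high sums of hepatocyte, macrophage, dendritic cell and B cell markers. Whether these cells were the source of the reads was not tested. Without it, the 2 remaining obese ILC1 libraries held 2 counts of these 5 genes, 1 of Apol7c and 1 of Apol9a.

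Apol9a and Apol9b encode interferon-induced proteins that bind phosphatidylethanolamine. Apol9b had 8, 13 and 0 counts in lean NK libraries, 6, 0 and 11 in obese NK libraries and 15 in the ILC1 library of obese mouse 26, with none in the other ILC1 libraries. Apol9a, which shares most of its coding sequence with Apol9b, had 1 count in each of 3 libraries and 5 in the ILC1 library of obese mouse 26. Over the group, Apol9b stood at 3.53 ± 3.40 CPM in lean and 2.23 ± 2.13 CPM in obese NK cells (SD, n = 3 each), a difference smaller than either SD.

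Apol8 was the one member with counts in NK libraries alone. It had 17, 12 and 0 counts in lean NK libraries and 3, 0 and 1 in obese NK libraries, and none in any of the 6 ILC1 libraries. Pooled, 4 counts in obese against 29 in lean NK cells gave a ratio of 0.106 with a counting interval of 0.0271 to 0.302, and the lean NK library of mouse 27 overlapped with the obese libraries. By counting error alone, the 0 counts in lean ILC1 allow a pooled ratio of at most 0.143 to lean NK cells at 95%. The spread between libraries is not covered by these limits, and the NK library of lean mouse 27 also had 0 counts. Without the filter, edgeR did not call it (ILC1 against NK cells over both diets, adjusted p = 0.266). DESeq2 gave it no adjusted p in the comparisons of ILC1 with NK cells, and did not call it between obese and lean NK cells.

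**Figure D5:**
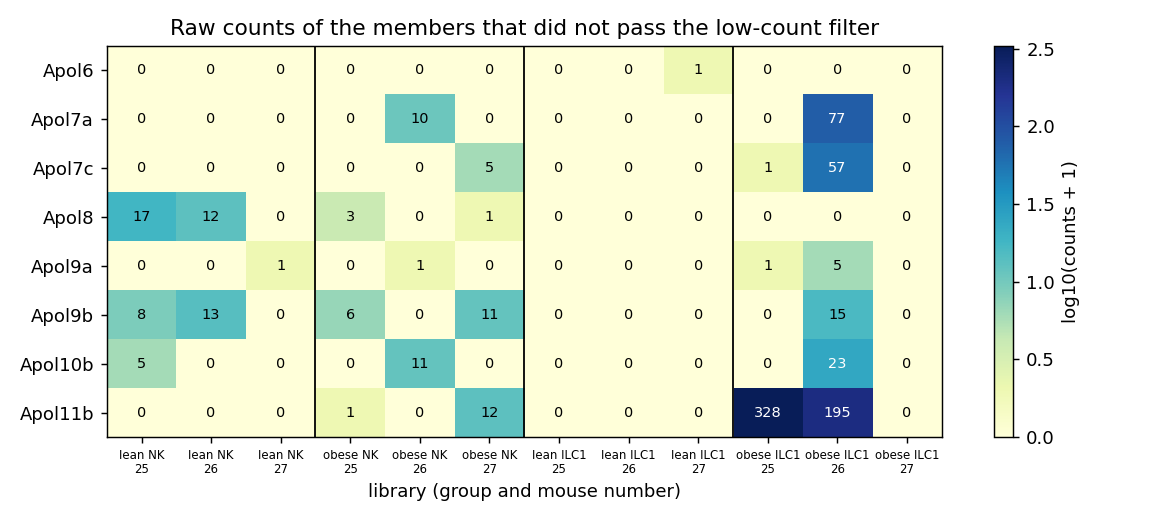
Raw counts of the 8 members that did not pass the low-count filter in each of the 12 libraries, with the colour on a log10(counts + 1) scale. Counts above 20 are found in the ILC1 libraries of obese mice 25 and 26 alone, and Apol8 has no count in any ILC1 library.

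The genes most like a member were taken by the correlation of log2 CPM over the 12 libraries, which share their groups, so that it describes likeness and nothing more. For Apol7b these were Cd200r1 (Pearson's r = 0.952), Cxcr6 (0.944) and Cd101 (0.942), an inhibitory receptor. Cd101 ran from a mean of 0.158 CPM in lean NK cells over 7.91 in obese NK cells to 147 in lean and 179 in obese ILC1. For Apol7e they were the receptor genes Cd160 (0.964), Cxcr3 (0.952) and Cd226 (0.950), which, like Apol7e, were well expressed in NK cells. Cd160 had 515 CPM in lean NK cells, 1007 in obese NK cells, 5512 in lean ILC1 and 4703 in obese ILC1. Apol7b and Apol7e correlated with each other at 0.814. With a library left out, between 1 and 3 of the genes named for Apol7b and between 1 and 2 of those for Apol7e were named again.

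Most other apolipoproteins carry lipids in plasma. The list, chosen by name, also holds Apobr, a receptor, and Apoo and Apool, proteins of the mitochondrial inner membrane, all 3 of them tested. Of 18 genes analysed, 12 were tested, and 3 were called higher in ILC1 over both diets: Apoc1 (log2 fold change 5.04), Apoc3 (7.45) and Apoe (4.51). The median of the 12 was 4.03, against 0.04 over all tested genes, and 0.23 without the ILC1 library of obese mouse 26, against -0.08, when Apoc3 and Apoe were called. That library held 175572 CPM of the 18 genes, against 1112 and 2710 CPM in the other obese ILC1 libraries. In the other 5 comparisons none of the 12 was called with all libraries, with medians of 2.41 between obese and lean NK cells, 7.73 between obese and lean ILC1, 1.01 and 7.11 between ILC1 and NK cells of lean and obese mice, and 4.14 for the interaction. Without that library, Apoc3 and Apoe were called in lean mice and Apoe in obese mice.

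Since many Apol genes respond to interferons, 31 interferon-induced genes were followed beside the family, of which 23 were analysed and 21 tested. Over both diets 3 were called higher in ILC1, namely Bst2, which tethers virus particles to cells, Ciita, the regulator of MHC class II genes, and Cybb, a subunit of the phagocyte oxidase. Without the ILC1 library of obese mouse 26 it was Bst2 and Cybb. Between obese and lean NK cells none was called, and the median log2 fold change was 0.05 against 0.09 over all tested genes. Between obese and lean ILC1 none was called either, with a median of 0.46 against 0.02. In lean and in obese mice alone, the medians for ILC1 against NK cells were 0.19 and 0.70 with none called, and for the interaction the median was 0.47 with none called.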

How the data were processed

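RNA from sorted liver NK cells and ILC1 of 6 mice gave 12 libraries in 4 groups of 3, assigned from the labels. The table deposited by the authors holds raw counts of reads per gene and a normalized score, the counts divided by 1 factor for each library and rounded. These factors ran from 0.57 to 1.52. The submitters' processing notes name bcl2fastq 2.19, Trimmomatic 0.36.5, STAR 2.5.2b, featureCounts 1.6.0.2 and build mm10, and the methods name SARTools. Read length, strand setting, annotation and handling of multi-mapped reads are not given in the sources used here. Only the 5545 genes with complete rows were analysed, and 1 incomplete row was left out. Symbols beyond Cyp26b1 were not used here, so p-values were adjusted over part of the genes.

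Counts were fitted in R 4.3.3 with edgeR 4.0.16 (TMM, filterByExpr, glmQLFit and glmQLFTest, 1 model of 4 groups) on the whole table with Benjamini-Hochberg adjustment, and called at an adjusted p under 0.05 with more than a 2-fold change. The standard error was computed as the ratio of the log2 fold change to the square root of F. CPM used TMM-scaled library sizes, and log2 CPM a prior count of 2. Pooled ratios have exact 95% intervals, and a group without counts was set to a floor of 3. The fit was tested on simulated data. Alternatives were DESeq2 1.42.0, DESeq2 size factors in edgeR, other filters, no fold threshold, only the compared libraries, replicate blocks and each library left out. Robust dispersions, leaving out both libraries that stood apart, and the mouse block without obese mouse 26 were added after seeing the data. The mouse block rests on the labels, which give the same mouse for 1 NK and 1 ILC1 library. Deviations from the group means correlated at -0.0763 to 0.141 within a mouse. The members and lists, and the motifs, were chosen with earlier results of these data known. All 10 members are named, with statistics for those that passed the filter, the 3 genes most correlated with each, and at most 5 genes of a list. No pair of libraries was identical.

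Gene positions and coding sequences came from GENCODE for GRCm38, matched by symbol for 10 of 10 members, and were aligned with Biopython 1.88. Windows of 75 bases were searched in all transcripts on both strands. Coding sequences stood in for proteins, which were not used here.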

Additional observations from a re-analysis of the deposited data

How the results depend on the processing

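Between obese and lean NK cells, between obese and lean ILC1 and for the interaction, edgeR called no member under any alternative run. DESeq2 called 1 member between obese and lean NK cells, 1 for the interaction and 1 in obese mice (Apol7b in each), and 2 in lean mice. Over all tested genes it called 94 higher and 57 lower in ILC1 of lean mice, 107 and 47 of obese mice and 149 and 73 over both diets, against 39 and 21, 14 and 10, and 82 and 31 by edgeR. In lean mice 2 members were also called with the compared libraries alone or without both libraries that stood apart, and 0 with the replicate block by mouse. In obese mice 2 were called without both libraries that stood apart. Over both diets the replicate block by mouse left 1 member called. The block called 32 genes higher and 14 lower over both diets, 16 and 5 in lean mice and 0 and 0 in obese mice. The block by number across diets, in which a number marks different animals (correlations of -0.0145 to 0.0768), changed no call. With 1 library left out, 1 to 2 members were called in lean mice, 0 to 1 in obese mice and 1 to 2 over both diets. The difference of Apol7e between obese and lean ILC1 changed sign to 0.17, both without obese ILC1 replicate 26 and without both libraries that stood apart, and the interaction of Apol7e to 0.11 in the latter case; without single libraries its values for ILC1 ran from -1.05 to 0.17. DESeq2's size factors, robust dispersions, a filter of 10 counts in each library of a group, testing without a filter and no fold change threshold changed no call of a member. The cause of the changed calls was not tested. Groups of 3 libraries, and counts of 0 to 2 for Apol7b in lean NK cells, limit the precision of its fold changes.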
